A study of Mus musculus with 6 samples.

Results

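Axon guidance ligands and receptors are the genes described here, as read in whole pancreatic islets, where insulin-secreting β cells sit among other hormone cells. Members were matched by gene name: Eph receptors (EphA and EphB), ephrins, semaphorins of classes 3 to 7, plexins, Slits, Robo1 to Robo3, netrins, netrin-Gs and Unc5 receptors. These families were chosen with earlier results of these data known. The rule found 68 probe sets that carry a single such symbol, for 65 genes, out of 41345 probe sets and 22180 named genes on the arrays. By family these were 13 Eph receptors, 8 ephrins, 20 semaphorins, 9 plexins, 3 Slits, 3 Robos, 3 netrins, 2 netrin-Gs and 4 Unc5 receptors.

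The arrays compared 3 samples of Sel1L-deficient islets with 3 samples of islets labelled wildtype, all from mice aged 5 weeks on the C57BL/6J background and all labelled female. Sel1L-deficient mice carried floxed Sel1L alleles together with a Cre recombinase gene placed at the Ins1 locus, which is active in β cells. The wildtype samples came from littermates with the same floxed alleles (Sel1L f/f) and no Cre, per the labels' protocols, so loss of Sel1L and the presence of the Cre allele cannot be told apart. Sel1L is the adaptor of the HRD1 ubiquitin ligase, through which misfolded proteins leave the endoplasmic reticulum for destruction (ER-associated degradation). Islets were picked by hand and kept in culture overnight. Islets also hold cells that do not express Cre, and the labels do not say whether each array holds 1 animal or a pool, nor that samples are separate animals, so the p-values rest on the spread from sample to sample, which may be technical.

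Guidance cues are secreted or cell-surface proteins that attract or repel growing axons and migrating cells through receptors on the responding cell. Ephrins are tethered to the cell surface and signal both ways when they meet Eph receptor tyrosine kinases. Semaphorins act through plexins, in class 3 mostly together with a neuropilin. Slits act through Robo receptors, and netrins through Dcc, neogenin and the Unc5 receptors. Outside the nervous system the same proteins act in blood vessel growth. In mouse islets, contact between β cells through EphA and ephrin-A proteins is known to tune insulin secretion, and Robo1 and Robo2 are known to be needed for the normal arrangement of the endocrine cell types.

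All values are log2 RMA summaries as the authors deposited them, and every difference is Sel1L-deficient minus wildtype on that log2 scale, with its standard error (SE) from limma. A probe set's level depends on its probes, so levels of different genes are not set against each other. The array medians lay between 3.08 and 3.16, and values below them were not separated from background. Sel1l itself read 7.73, 7.65 and 7.68 on the Sel1L-deficient arrays, against 8.46, 8.56 and 8.76 on the wildtype arrays, and fell with a difference of -0.90 ± 0.11 (SE; limma adjusted p = 0.0312). The glucagon gene Gcg read 12.5 to 12.7 and the somatostatin gene Sst 12.4 to 12.6 on the 6 arrays. The insulin gene Ins2 read 10.5, 10.8 and 10.5 on the Sel1L-deficient arrays and 11.1, 11.0 and 11.2 on the wildtype arrays. These hormone genes of islets thus read far above the array medians. Ins1 was not analysed here. Against their labels, replicate 3 of each genotype read low for Xist, the RNA of the inactive X chromosome (3.08 Sel1L-deficient and 2.93 wildtype, with 9.93 to 10.4 on the other 4 arrays), and high for the Y-linked gene Uty (7.04 Sel1L-deficient and 7.18 wildtype, with 1.49 to 1.73 on the others). Results are therefore also given for the 4 arrays with high Xist.

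Of the 65 guidance genes, 1 rose, 0 fell and 64 did not pass an adjusted p of 0.05 (limma, Benjamini-Hochberg over all 22180 genes). The gene that rose was Ntng1, which encodes netrin-G1. Over all genes 0.243% passed, 0.0902% higher and 0.153% lower. At an unadjusted limma p under 0.05 the members counted 9 higher and 6 lower, which is 23.1% of the 65. Of all genes 9.48% passed at that level, 4.45% higher and 5.04% lower. In 8 members the 3 Sel1L-deficient values lay above all 3 wildtype values and in 9 they lay below, together 26.2%. Of all genes 15.1% did not overlap, 7.22% higher and 7.84% lower. Means were higher in Sel1L-deficient islets in 37 members (56.9%) and in 50.1% of all genes. The median difference over the members was 0.05, beside a median of 0.000441 over all genes, and was 0.012 on the 4 arrays with high Xist. Leaving out wildtype replicate 1 gave 0.017, and leaving out replicate 2 of the Sel1L-deficient islets gave 0.029. The median size of the difference, regardless of sign, was 0.17 over the members and 0.11 over all genes, as the cumulative plot of difference sizes shows. The members were named with earlier results of these data known, so these shares describe the list and give no test of it. In whole islets, fewer cells of a type and less RNA per cell cannot be told apart.

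**Figure D1:**
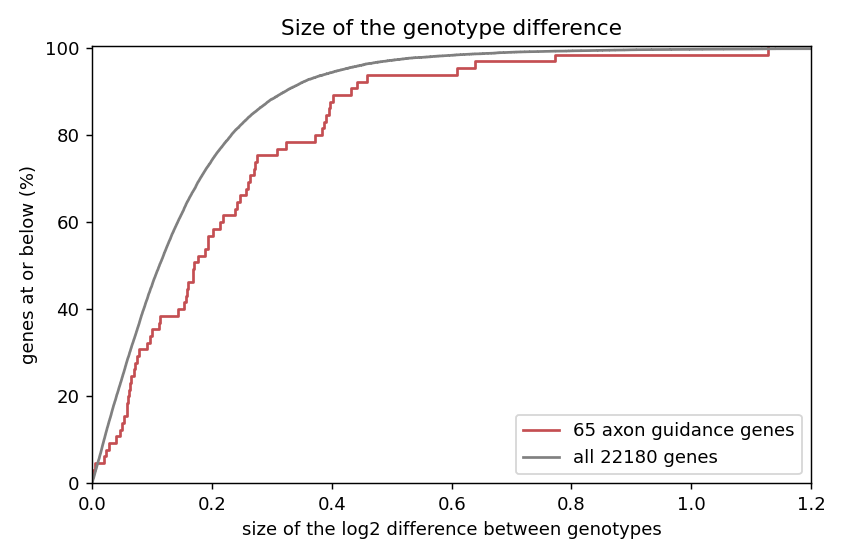
Cumulative share of genes (vertical axis, percent) at or below a given size of the log2 difference between Sel1L-deficient and wildtype islets (horizontal axis), for the 65 axon guidance genes and for all 22180 genes. The line of the guidance genes runs to the right of the line of all genes, with medians of 0.17 and 0.11.

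**Figure D2:**
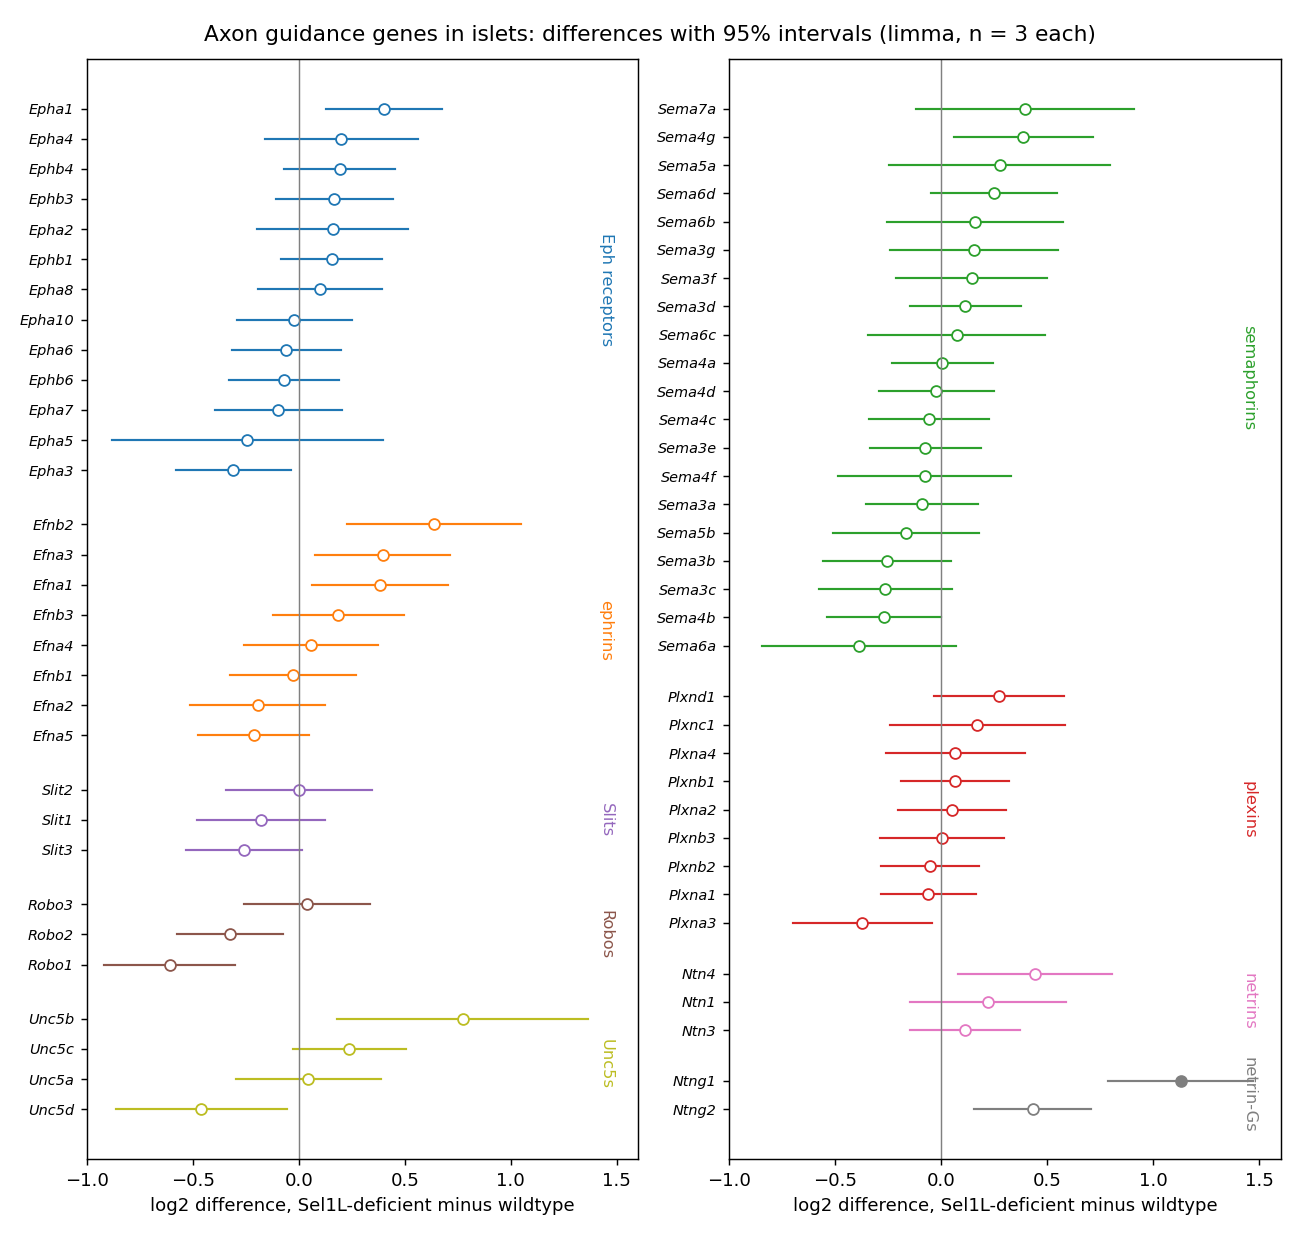
Log2 difference, Sel1L-deficient minus wildtype (horizontal axis), of each of the 65 guidance genes with its 95% interval from limma (n = 3 arrays each), grouped by family and ordered by difference. The filled point is Ntng1, the gene past an adjusted p of 0.05, at 1.13, and open points are the other 64.

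Netrin-Gs are anchored in the cell membrane by a lipid and bind NGL proteins on neighbouring cells instead of the classic netrin receptors. Ntng1 read 3.03, 3.06 and 3.48 in Sel1L-deficient islets and 2.08, 2.20 and 1.90 in wildtype islets. All 3 Sel1L-deficient values lay above all 3 wildtype values. The difference was 1.13 ± 0.15 (SE, 95% interval 0.79 to 1.47; limma adjusted p = 0.0367), a fold of 2.19. Of the 6 values only that of Sel1L-deficient replicate 3 lay above its array's median. The others were not separated from background, so the fold is not exact. The adjusted p was 0.0706 to 0.154 when any 1 of the 6 arrays was left out, with differences of 0.98 to 1.21, and 0.181 on the 4 arrays with high Xist, with a difference of 0.90. Between the 2 arrays with low Xist, 1 of each genotype, the difference was 1.58.

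Ntng2, the gene of netrin-G2, read 3.07, 2.89 and 3.27 in Sel1L-deficient islets, against 2.64, 2.68 and 2.60 in wildtype islets. These groups did not overlap either, and the difference was 0.43 ± 0.12 (SE; limma adjusted p = 0.311). Every value but that of Sel1L-deficient replicate 3 lay below its array's median, so these levels were not separated from background. The ligand of netrin-G1, NGL-1, is encoded by Lrrc4c and that of netrin-G2, NGL-2, by Lrrc4. Lrrc4c read 1.82, 1.79 and 2.11 in Sel1L-deficient islets and 1.89, 1.89 and 1.77 in wildtype islets, below the array medians throughout. Lrrc4 averaged 2.39 ± 0.16 in Sel1L-deficient islets and 2.35 ± 0.15 in wildtype islets (SD, n = 3 each), also below the medians.

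Ntng1 passed the adjusted threshold, while Ntng2 and Robo1, the member with the second lowest p, did not. The promoters of these genes are shown as examples. Each runs from 250 bases before the gene's start to 50 after it, in GRCm38.p6 as RefSeq gives it, read 5′ to 3′ on the gene's own strand. Capitals mark matches, on either strand, to 3 short motifs. They are CCACG, the half-site of the ER stress response element, CAGAC, the core of the Smad-binding element of TGF-β signalling, and TGCTGA, a half-site of large Maf factors.
Ntng1 (chr3:110143423-110143722, minus strand): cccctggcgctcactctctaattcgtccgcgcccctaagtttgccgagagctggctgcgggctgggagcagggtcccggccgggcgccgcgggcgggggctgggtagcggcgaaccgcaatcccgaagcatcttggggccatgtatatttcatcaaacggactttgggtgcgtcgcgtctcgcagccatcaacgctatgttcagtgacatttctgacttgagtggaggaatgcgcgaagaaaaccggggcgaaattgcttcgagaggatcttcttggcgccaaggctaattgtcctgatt
Ntng2 (chr2:29248050-29248349, minus strand): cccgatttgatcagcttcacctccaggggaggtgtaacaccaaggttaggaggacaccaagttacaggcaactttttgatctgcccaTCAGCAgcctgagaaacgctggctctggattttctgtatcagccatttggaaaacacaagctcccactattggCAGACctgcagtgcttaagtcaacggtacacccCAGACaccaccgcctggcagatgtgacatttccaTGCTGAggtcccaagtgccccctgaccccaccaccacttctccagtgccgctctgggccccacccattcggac
Robo1 (chr16:72662899-72663198, plus strand): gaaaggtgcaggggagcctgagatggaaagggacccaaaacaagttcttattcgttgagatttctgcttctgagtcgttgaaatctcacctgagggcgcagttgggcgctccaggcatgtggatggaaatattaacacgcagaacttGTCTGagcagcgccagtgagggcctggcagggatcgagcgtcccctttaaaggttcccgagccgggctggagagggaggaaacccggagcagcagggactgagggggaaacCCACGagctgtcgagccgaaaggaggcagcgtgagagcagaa
The Ntng1 window held 0 matches and is therefore in lower case throughout. The Ntng2 window held 4 matches, of which 2 were CAGAC and 2 TGCTGA. The Robo1 window held 2, CCACG once and CAGAC once on the opposite strand. The motifs are short and common: of all 32851 promoters in the table, 32.8% held CCACG, 49.6% CAGAC and 19.5% TGCTGA. A match describes the letters and is no evidence of binding, and nothing was read from the window without one. Of the 65 members, 56 had a promoter in the table.

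Slits, the secreted ligands of the Robo receptors, had 0 of 3 members past the threshold. Slit3 read 3.18, 3.19 and 3.16 in Sel1L-deficient islets, against 3.22, 3.48 and 3.59 in wildtype islets. Its groups did not overlap, but the values lay close to the array medians and the difference was -0.26 ± 0.12 (SE; limma adjusted p = 0.55). Slit2 averaged 3.92 ± 0.29 in Sel1L-deficient islets and 3.92 ± 0.03 in wildtype islets (SD, n = 3 each), with a 95% interval of the difference from -0.34 to 0.34. Slit1 lay below the medians on every array and differed by -0.18 ± 0.13 (SE), and by -0.057 without Sel1L-deficient replicate 1.

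The Robo receptors had 0 of 3 members past the threshold, with Robo1 and Robo2 lower on every Sel1L-deficient array than on any wildtype array. Robo1 read 7.27, 7.13 and 7.44 in Sel1L-deficient islets, against 8.07, 7.70 and 7.91 in wildtype islets. The difference was -0.61 ± 0.13 (SE, 95% interval -0.92 to -0.30; limma adjusted p = 0.192), a level 1.53-fold lower in Sel1L-deficient islets. Among the alternatives Robo1 passed the threshold in 1 of 14, limma with a trended and robust prior (adjusted p = 0.0461), and over all 14 its adjusted p was 0.0461 to 0.443 and its difference -0.71 to -0.52. Robo2, the other Robo known from islet architecture, read 7.98, 7.84 and 8.08 in Sel1L-deficient islets, against 8.36, 8.21 and 8.31 in wildtype islets. Its difference was -0.32 ± 0.11 (SE; limma adjusted p = 0.387). Robo3 lay below the medians on every array, with a difference of 0.04 ± 0.13 (SE). On the 4 arrays with high Xist the differences were -0.68 for Robo1 and -0.37 for Robo2, and between the 2 arrays with low Xist they were -0.47 and -0.23. A list of β-cell markers was lower too. Of its 7 measured genes 3 fell (Mafa, Slc2a2 and Ucn3), all 7 means were lower, and the summed level in linear RMA units was 5726 to 6015 in Sel1L-deficient islets and 7808 to 9081 in wildtype islets. The part of that shift in the Robo values was not tested.

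**Figure D3:**
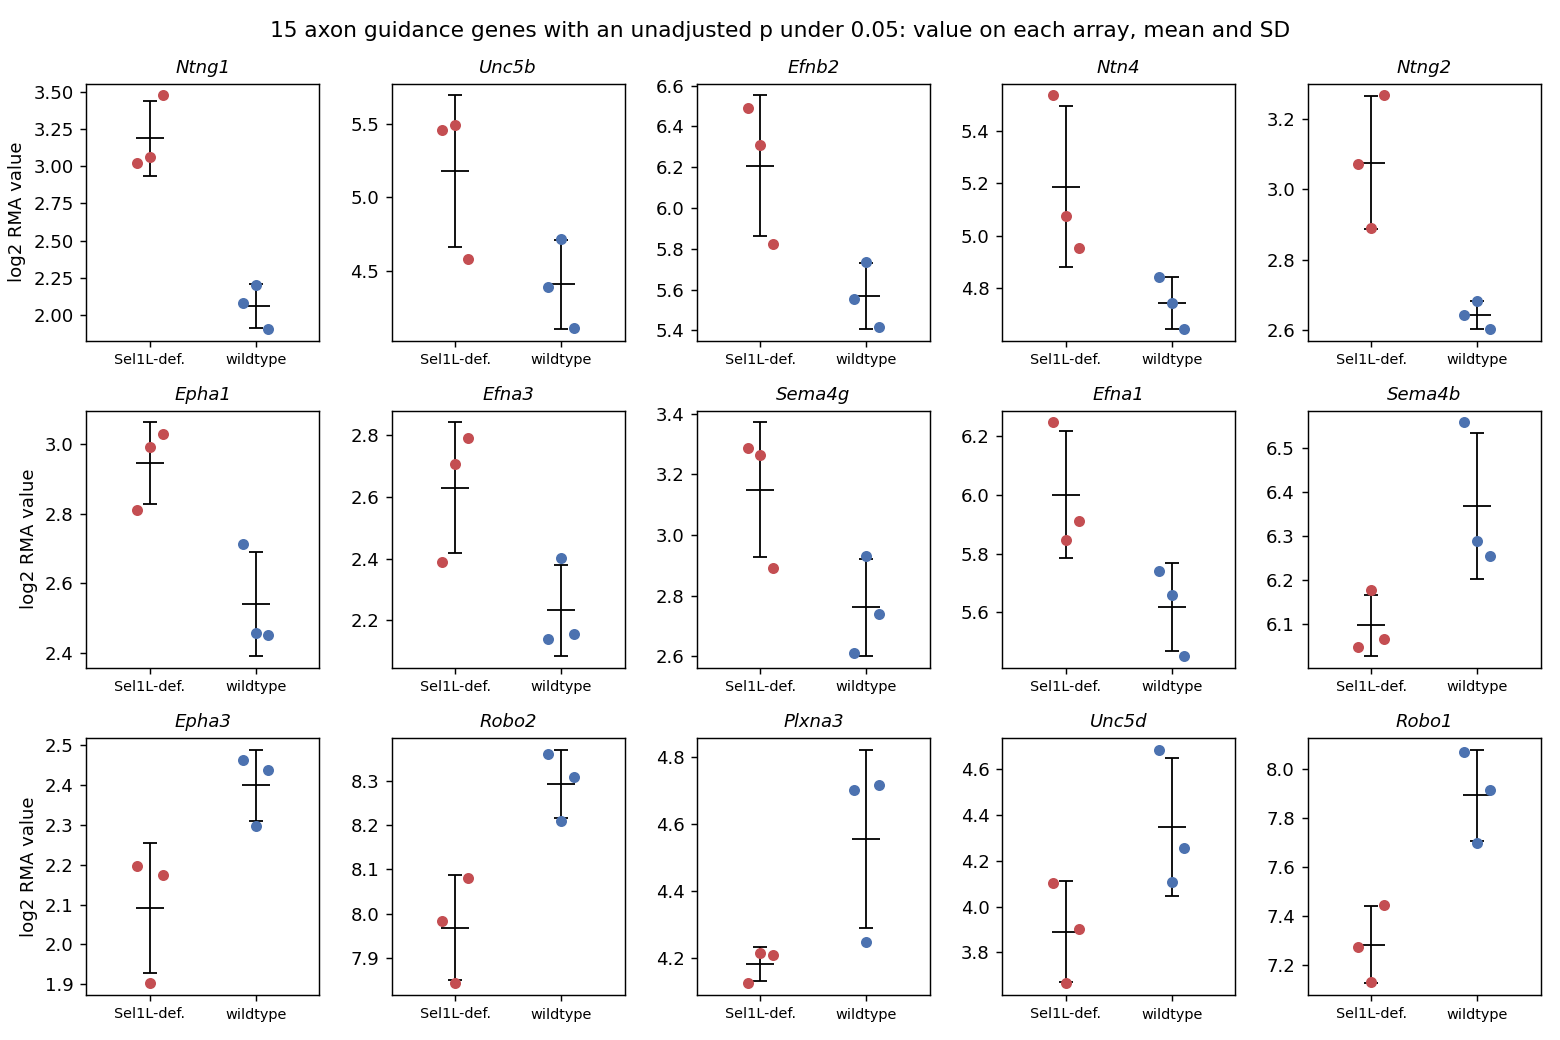
Log2 RMA value (vertical axis) on each of the 3 Sel1L-deficient and 3 wildtype arrays for the 15 guidance genes with an unadjusted limma p under 0.05, ordered from the most positive to the most negative difference; black marks are the mean and SD. Each panel has its own axis. The groups overlap in Unc5b, Efna3 and Sema4g and are apart in the other 12.

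Among the netrins, secreted relatives of laminins, 0 of 3 passed, and all 3 had higher means in Sel1L-deficient islets. Ntn4, a basement membrane protein also made by blood vessels, read 5.53, 5.08 and 4.95 in Sel1L-deficient islets and 4.84, 4.75 and 4.65 in wildtype islets. The lowest Sel1L-deficient value was above the highest wildtype value, with a difference of 0.44 ± 0.16 (SE; limma adjusted p = 0.422) that was 0.27 without Sel1L-deficient replicate 1. Ntn1 overlapped between genotypes and differed by 0.22 ± 0.16 (SE), by 0.07 without Sel1L-deficient replicate 2. Ntn3 lay below the medians on every array, at a difference of 0.11.

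The Unc5 receptors mediate repulsion by netrins and also bind FLRT adhesion proteins. None of the 4 passed (0 at the adjusted threshold, 2 at an unadjusted limma p under 0.05, and 0 with the trended and robust prior). The unadjusted share over all genes was 9.48%. Unc5b, which is also a receptor of arterial and sprouting endothelial cells, read 5.46, 5.50 and 4.58 in Sel1L-deficient islets and 4.39, 4.72 and 4.11 in wildtype islets. Replicates 1 and 2 of the Sel1L-deficient islets were high, while replicate 3 lay within the wildtype range. The difference was 0.77 ± 0.26 (SE; limma adjusted p = 0.387), and 1.07 without Sel1L-deficient replicate 3. Unc5d read 4.10, 3.66 and 3.90 in Sel1L-deficient islets, against 4.69, 4.11 and 4.25 in wildtype islets. Its groups nearly met, at Sel1L-deficient replicate 1 and wildtype replicate 2, and the difference was -0.46 ± 0.18 (SE; limma adjusted p = 0.454), or -0.29 without wildtype replicate 1. Unc5c averaged 7.11 ± 0.14 in Sel1L-deficient islets and 6.87 ± 0.11 in wildtype islets (SD, n = 3 each), with overlap. Unc5a overlapped too, with a 95% interval of the difference from -0.30 to 0.39.

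The ephrins had 0 of 8 members past the threshold and 3 with an unadjusted limma p under 0.05, all on the higher side. That level was passed on the higher side by 4.45% of all genes. Efnb2, a transmembrane ephrin that marks arterial endothelium, read 6.49, 6.31 and 5.82 in Sel1L-deficient islets, against 5.56, 5.74 and 5.41 in wildtype islets. The groups did not overlap, and the difference was 0.64 ± 0.18 (SE, 95% interval 0.23 to 1.05; limma adjusted p = 0.311). Efna1, a lipid-anchored ephrin, read 6.25, 5.85 and 5.91 in Sel1L-deficient islets, against 5.74, 5.66 and 5.45 in wildtype islets. Its groups did not overlap, with a difference of 0.38 ± 0.14 (SE; limma adjusted p = 0.431) that was 0.26 without Sel1L-deficient replicate 1. Efna3 lay below the medians on every array, read 2.39, 2.71 and 2.79 in Sel1L-deficient islets against 2.14, 2.40 and 2.16 in wildtype islets, and overlapped, since the lowest Sel1L-deficient value was under the highest wildtype value. Its difference was 0.40 ± 0.14 (SE; limma adjusted p = 0.409). Efna5, the ephrin-A best known from β-cell contacts in mice, had lower values instead, with a mean of 5.14 in Sel1L-deficient islets and 5.36 in wildtype islets and no overlap (limma adjusted p = 0.626). Its difference of -0.21 was -0.13 without wildtype replicate 1. Efnb1 averaged 5.81 ± 0.16 in Sel1L-deficient islets and 5.84 ± 0.16 in wildtype islets (SD, n = 3 each), and the 95% interval of its difference was -0.32 to 0.27. The other 3 ephrins, Efna2, Efna4 and Efnb3, overlapped, with differences of -0.19, 0.06 and 0.19.

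Of the 13 Eph receptors 0 passed the threshold, and 10 lay below the medians on every array. The 3 that lay above them on every array were Epha2, Epha7 and Ephb4. Ephb4, the receptor of ephrin-B2 and a marker of veins, read 4.69, 4.39 and 4.45 in Sel1L-deficient islets and 4.25, 4.32 and 4.37 in wildtype islets. Its groups nearly met but did not overlap, with a difference of 0.19 ± 0.11 (SE; limma adjusted p = 0.676) that was 0.10 without Sel1L-deficient replicate 1. Epha7 averaged 5.09 ± 0.21 in Sel1L-deficient islets and 5.19 ± 0.09 in wildtype islets (SD, n = 3 each), and Epha2 differed by 0.16 ± 0.16 (SE). Both overlapped between genotypes. Of the dim receptors, Epha1 read 2.81, 2.99 and 3.03 in Sel1L-deficient islets, against 2.71, 2.46 and 2.45 in wildtype islets, without overlap. Epha3 read 2.20, 1.90 and 2.18 in Sel1L-deficient islets, against 2.46, 2.30 and 2.44 in wildtype islets, also without overlap. Their differences were 0.40 ± 0.12 and -0.31 ± 0.12 (SE; limma adjusted p = 0.34 and 0.456), at levels not separated from background. Epha5, the receptor paired with ephrin-A5 in β-cell studies, had a difference of -0.24 with a 95% interval of -0.88 to 0.40 and lay below the medians throughout. Differences of the other 7 receptors, all below the medians, were -0.07 to 0.20, and of these Ephb1, at 0.16, was without overlap.

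The semaphorins had 0 of 20 members past the threshold, with 10 higher and 10 lower means in Sel1L-deficient islets, and 2 with an unadjusted limma p under 0.05. That unadjusted level was passed by 9.48% of all genes. Among the secreted class 3, which guides axons and vessels through neuropilins and plexins, all 7 overlapped between genotypes and differences were -0.26 to 0.15. In class 4, transmembrane proteins, Sema4b read 6.05, 6.18 and 6.07 in Sel1L-deficient islets, against 6.56, 6.29 and 6.26 in wildtype islets. The groups did not overlap (difference -0.27 ± 0.12 SE; limma adjusted p = 0.525), and the difference was -0.17 without wildtype replicate 1. Sema4g read 3.29, 3.27 and 2.89 in Sel1L-deficient islets, against 2.61, 2.93 and 2.74 in wildtype islets, with overlap. Its difference was 0.39 ± 0.14 (SE; limma adjusted p = 0.44) at values around the array medians. Sema4a, Sema4c and Sema4d lay above the medians with differences of 0.01, -0.06 and -0.02, and Sema4f lay below them at -0.08.

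In the transmembrane class 6, Sema6a read 5.24, 5.20 and 5.23 in Sel1L-deficient islets, against 6.12, 5.39 and 5.33 in wildtype islets. The groups did not overlap, but wildtype replicate 1 stood apart, and the difference of -0.39 ± 0.20 (SE; limma adjusted p = 0.606) was -0.14 without it. Sema6d averaged 8.07 ± 0.05 in Sel1L-deficient islets and 7.83 ± 0.22 in wildtype islets (SD, n = 3 each), with overlap, and its difference of 0.25 was 0.38 without wildtype replicate 2. Sema7a, the lipid-anchored semaphorin that acts through an integrin and plexin C1, read 6.64, 7.12 and 6.84 in Sel1L-deficient islets and 5.96, 6.62 and 6.84 in wildtype islets. Wildtype replicate 1 was low and replicate 3 as high as the Sel1L-deficient arrays, and the difference of 0.39 ± 0.23 (SE; limma adjusted p = 0.658) was 0.14 without wildtype replicate 1. Sema5a and Sema5b, of class 5, crossed the medians and differed by 0.28 and -0.17.

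The plexins, the receptors of the semaphorins, had 0 of 9 members past the threshold, and 8 of 9 overlapped between genotypes. The share without overlap was 15.1% over all genes. Plxna3, a receptor of class 3 semaphorins together with neuropilins, read 4.12, 4.21 and 4.21 in Sel1L-deficient islets, against 4.70, 4.25 and 4.72 in wildtype islets. It was the 1 plexin whose groups were apart, with wildtype replicate 2 close to the Sel1L-deficient values. The difference was -0.37 ± 0.14 (SE; limma adjusted p = 0.455). Plxnb2, a plexin of class 4 semaphorins, averaged 8.87 ± 0.07 in Sel1L-deficient islets and 8.92 ± 0.06 in wildtype islets (SD, n = 3 each), with a 95% interval of the difference from -0.28 to 0.18. Plxna2 had an interval from -0.21 to 0.31. Plxnd1, the endothelial receptor of Sema3e, differed by 0.27 ± 0.13 (SE; limma adjusted p = 0.582), and by 0.17 without wildtype replicate 1. The other 5 plexins had differences of -0.06 to 0.17. Plxna1 and Plxnb1, like Ephb1, had a second, dimmer probe set, which differed by 0.07 for Plxna1, 0.05 for Plxnb1 and -0.22 for Ephb1, where the brighter ones differed by -0.06, 0.06 and 0.16.

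Several members with higher means, among them Efnb2, Unc5b, Ntn4, Ephb4 and Plxnd1, are known from blood vessels, and endothelial markers were read beside them. These genes were picked among the higher members. Of the class 3 semaphorins, which also guide vessels, 3 had higher and 4 lower means. Among them Sema3e, the ligand of Plxnd1, differed by -0.08. Of 12 endothelial markers 0 passed the adjusted threshold, 11 had higher means in Sel1L-deficient islets, and the median difference was 0.40. Their summed level in linear RMA units was 1794 to 2043 in Sel1L-deficient islets and 1208 to 1606 in wildtype islets. Of the defining markers, Cldn5 lay below the medians on every array, while Pecam1, Cdh5 and Kdr lay above them. Robo4, the endothelial Robo and no member by the rule, read 6.10, 5.79 and 6.17 in Sel1L-deficient islets, against 5.59, 5.47 and 5.77 in wildtype islets. Its groups nearly met but did not overlap, and the difference was 0.41 ± 0.14 (SE; limma adjusted p = 0.387). Mesenchymal markers had 0 of 11 past the threshold and higher means for all 11, with a summed level of 626 to 712 in Sel1L-deficient islets and 404 to 562 in wildtype islets. The order of the arrays was not the same for all genes: Sel1L-deficient replicate 3 was the highest of its group for Robo4 but the lowest of its group for Efnb2, Unc5b and Ntn4, as the plots against the endothelial sum show. Wildtype replicate 3 held the same places within its own group, at 5.77 for Robo4, 5.41 for Efnb2, 4.11 for Unc5b and 4.65 for Ntn4. Both replicate 3 arrays are those with low Xist. They also had the highest acinar marker sums, 7114 (Sel1L-deficient) and 7767 (wildtype), with 1893 to 4661 on the other 4 arrays. The part of endothelial, mesenchymal and acinar cells in the values of the guidance genes and Robo4 was not tested.

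**Figure D4:**
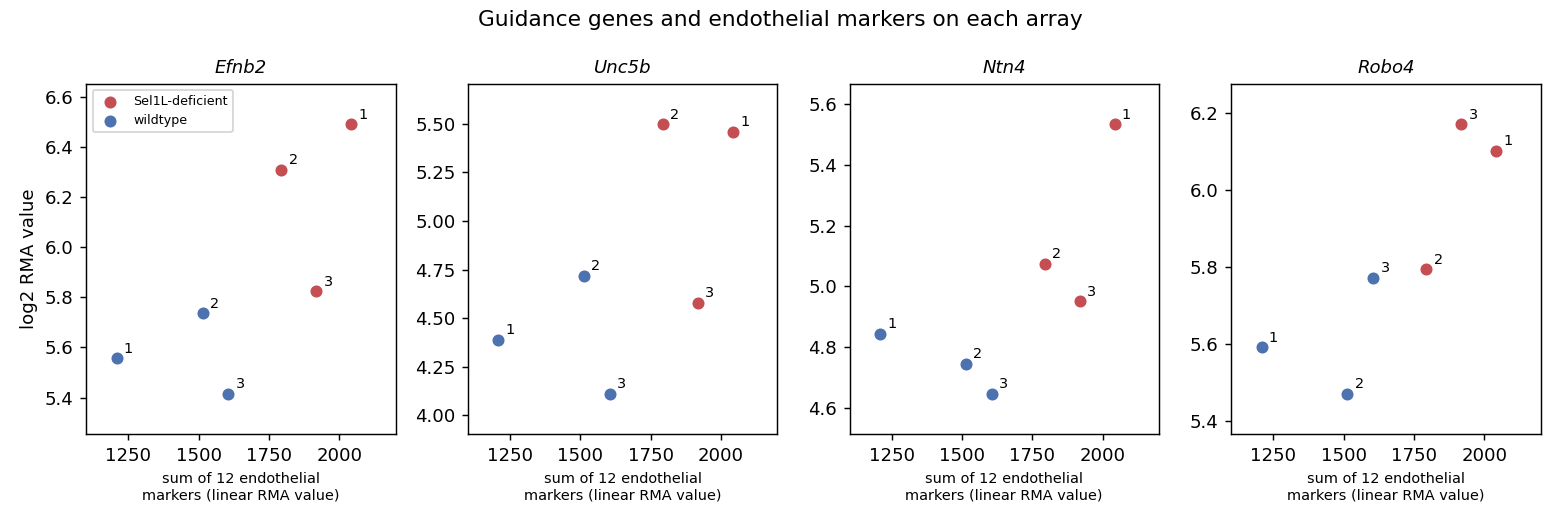
Log2 RMA value of Efnb2, Unc5b, Ntn4 and Robo4 (vertical axes) against the sum of 12 endothelial markers in linear RMA units (horizontal axis) on each array, with the replicate number beside each point. All 3 Sel1L-deficient arrays lie to the right of the wildtype arrays, from 1794 upward against 1606 and below.

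Markers of nerve-associated cells were read too, since these families are named for axons. Schwann cell markers (6 measured, 0 past the threshold) summed to 57.0 to 81.2 in Sel1L-deficient islets and 63.8 to 73.7 in wildtype islets. Neuronal markers (5 measured, 0 past the threshold) summed to 1215 to 1490 in Sel1L-deficient islets and 1344 to 1499 in wildtype islets. Both sums overlapped between genotypes. Most of the neuronal sum came from Snap25, which read 10.0 to 10.2 over both genotypes, so its overlap describes mainly that gene. Prph (3.55 to 5.16) and Stmn2 (4.63 to 7.12) varied widely between arrays of both genotypes. They were a much smaller part of the sum than Snap25 but added to its spread between arrays. The sums of 4 measured α-cell markers did not overlap, at 10013 to 10512 in Sel1L-deficient islets and 9471 to 9786 in wildtype islets. All 4 means were higher and 0 passed the threshold. Most of this sum came from Gcg and Ttr, each of which overlapped between genotypes, with differences of 0.03 and 0.17. Irx2 overlapped too, at a difference of 0.27, and Irx1 did not, at 0.56. The part of α cells in the guidance gene values was not tested. Leukocyte, duct and acinar marker sums overlapped as well, at 188 to 219, 66.5 to 85.3 and 1893 to 7114 in Sel1L-deficient islets, against 198 to 254, 78.9 to 97.8 and 3177 to 7767 in wildtype islets.

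Partners of the guidance receptors were counted from a list of 26 genes, of which 24 were measured: 0 rose and 0 fell at the adjusted threshold, 4 were higher and 1 lower at an unadjusted limma p under 0.05, and 1 passed with the trended and robust prior. The unadjusted share was 20.8%, against 9.48% of all genes. The gene that passed with that prior was Flrt1, from the FLRT family of Unc5 and latrophilin ligands, which read 7.20, 7.04 and 7.41 in Sel1L-deficient islets, against 6.52, 6.11 and 6.48 in wildtype islets. The difference was 0.84 ± 0.15 (SE; limma adjusted p = 0.11). Cntn1, the adhesion protein contactin 1, read 6.77, 7.04 and 6.95 in Sel1L-deficient islets, against 7.57, 7.30 and 8.11 in wildtype islets, with a difference of -0.74 ± 0.20 (SE; limma adjusted p = 0.28). Itga1, the alpha subunit of an integrin known as a Sema7a receptor, differed by 0.47 ± 0.12 (SE; limma adjusted p = 0.246). Its groups, like those of Flrt1 and Cntn1, did not overlap. The netrin receptor neogenin, Neo1, differed by 0.12 ± 0.11 (SE) and the neuropilin Nrp1 by 0.31 ± 0.17 (SE), both with overlap, while Dcc lay below the medians on every array. The median difference of the list was 0.08.

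Signalling proteins that act below the receptors were counted from a list of 43 genes, of which 41 were measured: 0 rose and 0 fell at the adjusted threshold, 1 was higher and 2 lower at an unadjusted limma p under 0.05, and 0 passed with the trended and robust prior. The unadjusted share was 7.32%, against 9.48% of all genes. Crmp1, a collapsin response mediator that acts downstream of semaphorin 3A, read 5.92, 5.73 and 5.36 in Sel1L-deficient islets, against 6.31, 6.10 and 6.32 in wildtype islets. The groups did not overlap (difference -0.57 ± 0.15 SE; limma adjusted p = 0.287). Srgap2, a GTPase-activating protein of the Slit and Robo pathway, differed by 0.33 ± 0.15 (SE; limma adjusted p = 0.538), without overlap, and by 0.17 without wildtype replicate 1. Besides Crmp1, the unadjusted counts held Fyn on the higher side and Dpysl2 on the lower side, both named after their values were seen. The median difference of the list was 0.015.

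The 15 guidance genes with an unadjusted p under 0.05 kept their direction in all 204 values that the 14 alternatives gave for them, as the plot of the alternatives shows. They also had the same sign within the 4 arrays with high Xist and between the 2 with low Xist, as 47 of all 65 members did. These genes were picked for their difference on the same arrays, so their steady direction follows in part from that choice. Many of the values could not have turned sign. Each of these genes had a single probe set, and replicate numbers and Xist levels were balanced between genotypes. The settings on probe sets, brighter genes, prior, replicate block and Xist covariate therefore left the difference as it was. In 6 higher and 6 lower of the 15 genes the groups did not overlap. Leaving out arrays or splitting them by Xist level could not turn the sign of those genes. The shared sign in both Xist parts is therefore no separate evidence.

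**Figure D5:**
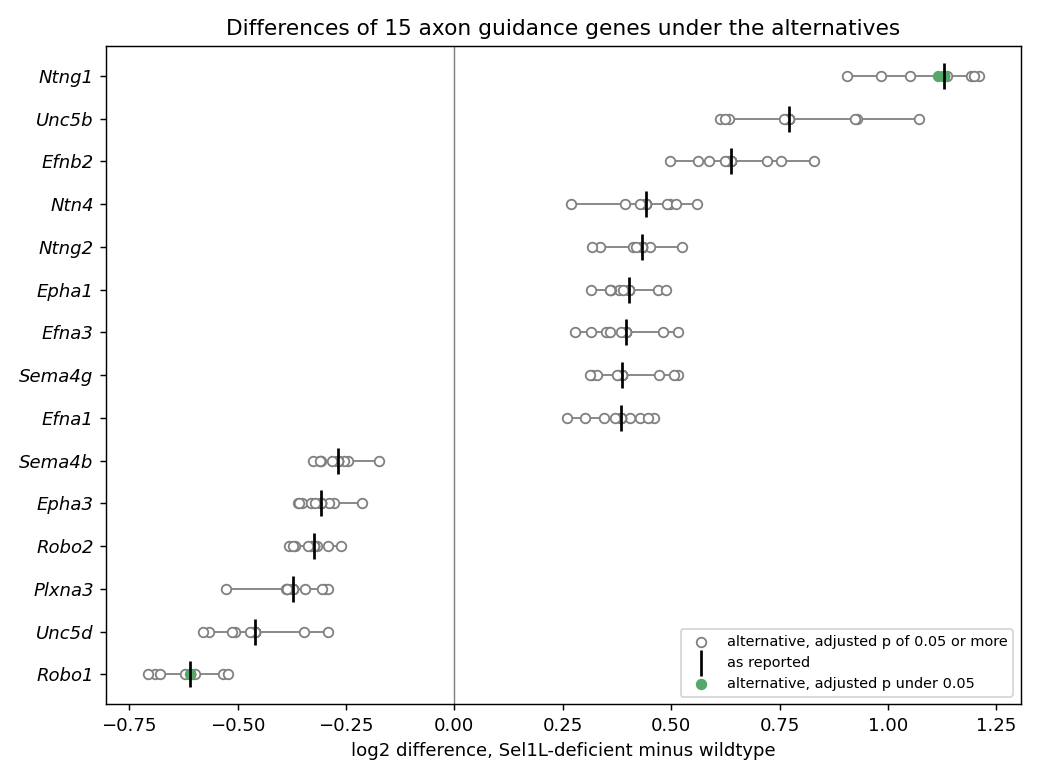
Log2 difference, Sel1L-deficient minus wildtype (horizontal axis), of the 15 guidance genes as reported (black ticks) and under the alternative settings (circles, filled green where the adjusted p was under 0.05). The green circles belong to Ntng1, with 5 of its 13 alternatives, and to Robo1, with 1 of 14.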

How the data were processed

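Gene expression was measured on 6 Affymetrix arrays, 3 of Sel1L-deficient and 3 of wildtype islets, labelled from total RNA. Per the submitters' processing notes, the authors used RMA, which corrects background, normalizes between arrays and combines probes. Its version is not given in the sources used here. Deposited values were taken as log2 because all 41345 probe sets lay between 0.526 and 13.0 without detection calls. The number of arrays limits the precision.

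Platform annotation gave 1 symbol for 23521 probe sets, several for 1814 and none for 16010. By Entrez identifier 23328 of them matched RefSeq genes (GRCm38.p6), which changed 0 symbols. Each gene took its probe set with the highest mean, giving 22180 genes. limma 3.58.1 in R 4.3.3 (lmFit, eBayes, default prior, two-sided) tested Sel1L-deficient minus wildtype with Benjamini-Hochberg adjustment over all genes, and was tested on simulated data. An exact permutation test of 3 against 3 arrays cannot go below 0.1.

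Members and lists were chosen with earlier results of these data known. Named with values were members past the adjusted threshold or with an unadjusted p under 0.05, the 2 brightest and the 2 with the largest differences of each family, and the 3 largest differences of each list, of which 1 is not reported here. Efna5, Epha5, Epha2, the remaining members given by their difference, Neo1, Nrp1, Dcc, Lrrc4, Lrrc4c, Robo4 and single cell type markers were named after their values had been seen. Alternatives left out each array, blocked on replicate number, tested every probe set or the mean of probe sets, kept brighter genes, used a trended and robust prior, kept arrays with Xist above 6 or took Xist as a covariate, and centred each array on its median.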

Additional observations from a re-analysis of the deposited data

How the results depend on the processing

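The number of genes past the threshold among all 22180 depended on the arrays and the prior: 54 as reported, 4 to 29 with 1 array left out, 1 on the 4 arrays with high Xist and 133 with the trended and robust prior. Among the guidance genes 1 passed as reported, 0 with any 1 array left out, with the replicate block, on the 4 arrays with high Xist or among brighter genes, where Ntng1 was not tested, and 2 with the trended and robust prior, which added Robo1. That prior also gave 1 gene of the partner list. Ntng1 had an adjusted p of 0.0657 with the replicate block. Deviations of equally numbered samples from their group means correlated at 0.10, 0.07 and 0.21, and every sample correlated best with its own number. No label gives the numbers a shared litter or day, so the block is given as an alternative only. Whether equal numbers share a factor was not tested. The members' median difference was 0.017 to 0.064 with 1 array left out, 0.026 among brighter genes and 0.012 on the arrays with high Xist. Of the other 15 members in the repeated fits, 5 with differences near 0 turned sign when 1 array was left out: Epha7 (-0.17 to 0.027), Efnb1 (-0.12 to 0.065), Slit2 (-0.10 to 0.17), Plxna2 (-0.023 to 0.11) and Unc5a (-0.10 to 0.18). On the arrays with high Xist Slit2 differed by 0.16 and Unc5a by -0.047. The causes were not tested.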

Other observations

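Ntn5, another netrin gene, is covered by 2 probe sets that also carry the symbol Sec1, so it was not counted as a member. The first read 2.55, 2.34 and 2.18 in Sel1L-deficient islets and 2.20, 2.04 and 2.02 in wildtype islets, with overlap and below the array medians. The other read 3.22, 2.86 and 2.88 in Sel1L-deficient islets and 2.76, 2.74 and 2.77 in wildtype islets, with the 3 Sel1L-deficient values above the 3 wildtype values. No test was made of either, since their signal cannot be given to 1 gene.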
